A study of Mus musculus with 19 samples.

Results

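Saturated fatty acids were compared with monounsaturated fatty acids of the same chain length in differentiated 3T3-L1 cells, a clonal mouse fibroblast line that turns into fat-storing adipocytes in culture. The comparison used 15 of the 19 microarrays of the study: 8 of cells given a saturated acid and 7 of cells given a monounsaturated one. At 16 carbons the saturated acid was palmitic acid (PA, n = 4) and its partner with 1 double bond was palmitoleic acid (PMA, n = 4, called PMO in some labels). At 18 carbons the saturated acid was stearic acid (SA, n = 4) and its partner was oleic acid (OA, n = 3, since cRNA amplification failed for a replicate). Each acid was given at 250 µM, dissolved in ethanol and carried on 2% albumin, for 48 h from day 8 of differentiation. All cells, the 4 control cultures with ethanol and 2% albumin included, had been without serum since day 7. Replicates within a group are biological ones in the labels' words, which leave unsaid whether they were separate experiments or parallel wells of the same clonal line. The p-values measure the spread between these arrays, which may be technical.

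The question was which genes differed with the double bond in the same direction at both chain lengths. For each of 18820 genes the mean of the PMA and OA group means was taken from the mean of the PA and SA group means on the log2 scale, and PA minus PMA and SA minus OA were taken separately. A gene is called when its p-value from limma, adjusted over all genes by the Benjamini-Hochberg method, is under 0.05. A positive difference means higher expression with the saturated acid. Rises and falls are meant in this sense, except where acids are compared with control.

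As background, saturated and monounsaturated acids reach adipocytes together in plasma and differ in how they are handled once inside. Palmitate and stearate are substrates of ceramide synthesis and of the stearoyl-CoA desaturases, which turn them into palmitoleate and oleate. In many cell types saturated acids at high dose are known to raise inflammatory chemokines and endoplasmic reticulum stress, and monounsaturated acids given alone or alongside are known for milder or opposing effects.

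The arrays correlated with each other between 0.988 and 0.997, and their medians lay between 5.23 and 5.43 (log2). PA replicates 2 and 4 lay lowest on the first principal component of the arrays (31.2% of the variance), and PMA replicates 1 and 4 lay highest on the second (13.7%). The counts of genes called between the classes and in each pair are given with and without these arrays; other counts were made with all arrays. The pooled standard deviation within a group was 0.138 for PA and 0.0951 to 0.111 for the other groups. Adipocyte markers were present, with 9 of 10 listed genes measured and means from 10.0 to 12.5 (log2), all above the median gene at 5.97. Preadipocyte and fibroblast markers were present too, with means from 8.05 to 11.5 for 7 of 7 genes. Markers of macrophages (1 of 6 above the median gene), endothelium (0 of 4) and skeletal muscle (1 of 4) were mostly dim.

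Saturated and monounsaturated acids differed in 104 of 18820 genes (0.553%), with 26 higher (0.138%) and 78 lower (0.414%) with the saturated acids. The chemokine Ccl5 led the rises at 2.07-fold, and, among genes on the same side in both pairs, those that fell furthest were the angiotensin receptor Agtr2, the matrix proteoglycan Fmod, the Wnt modulator Sfrp2 and the matrix proteoglycan Ogn, each by less than 1.5-fold. At an unadjusted p under 0.05, 474 genes were higher (2.52%) and 1894 lower (10.1%). Both chain-length pairs lay on the same side of 0 for 103 of the 104 genes (26 higher, 0.138%, and 77 lower, 0.409%), which the test itself favours because it averages the pairs. The median difference was 0.32 for the 26 genes (0.32 for PA minus PMA and 0.27 for SA minus OA) and -0.25 for the 77 genes (-0.33 and -0.17). The fall was larger at 16 than at 18 carbons in 76 of the 77, and over all genes the median difference was -0.03 for PA minus PMA and -0.00 for SA minus OA.

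The number and direction of calls moved with the scaling of the arrays and with the arrays that stood apart. After cyclic loess between arrays 125 genes were called, 69 higher and 56 lower, and 76 of them were among the 104. With PA replicates 2 and 4 left out 89 genes were called (37 higher, 52 lower), and with PMA replicates 1 and 4 left out 51 were called (20 higher, 31 lower). Leaving out OA replicate 3 gave 46 calls, and leaving out PA replicate 4 gave 67. Of the 103 genes, 39 were called under all 28 settings compared, 14 higher and 25 lower.

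**Figure D1:**
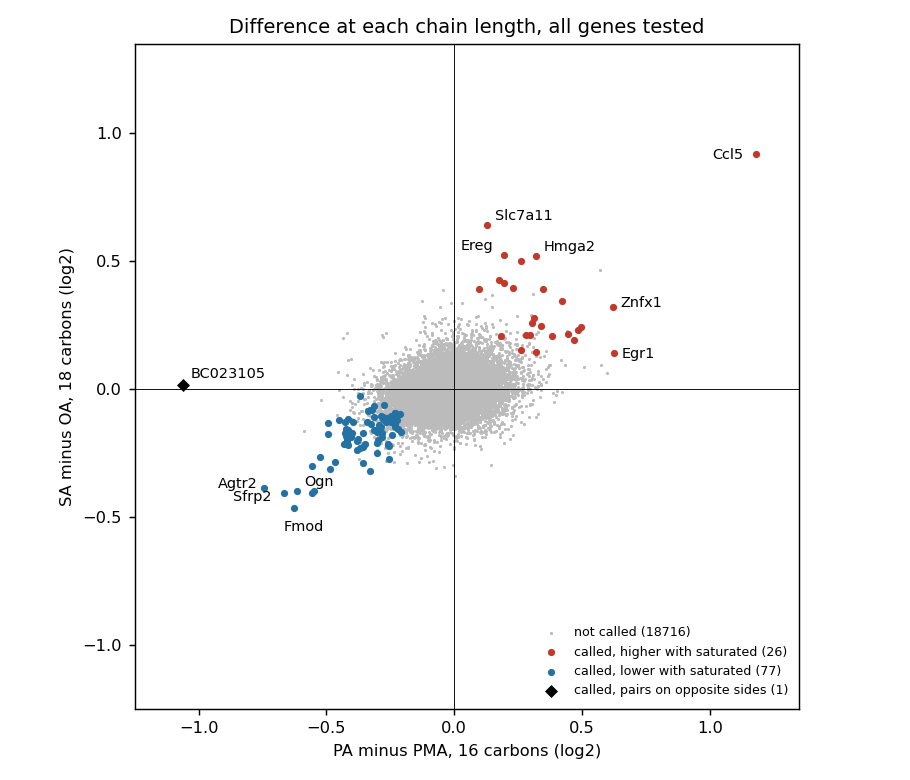
Log2 difference PA minus PMA (horizontal axis) against SA minus OA (vertical axis) for all 18820 genes, 1 point per gene, with the 26 called higher in red, the 77 called lower in blue and BC023105, whose pairs lie on opposite sides, as a black diamond. Ccl5 lies apart at 1.18 and 0.92, and most blue points lie further from 0 on the horizontal than on the vertical axis.

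The promoters of 3 of the genes that moved are shown because they are regulatory sequence of a leading gene of each direction for which RefSeq's GRCm38.p6 table holds an entry. Slc7a11 had the lowest adjusted p at 18 carbons, and Fmod and Ogn are the 2 matrix proteoglycans with the largest falls. Each run is the 250 bases before the gene's annotated start, written 5′ to 3′ on the gene's strand, and lies at chr3:50443614-50443863 on the minus strand for Slc7a11, chr1:134037004-134037253 on the plus strand for Fmod and chr13:49607765-49608014 on the plus strand for Ogn. Capitals mark letters that match one of 9 motifs searched on both strands.
Slc7a11: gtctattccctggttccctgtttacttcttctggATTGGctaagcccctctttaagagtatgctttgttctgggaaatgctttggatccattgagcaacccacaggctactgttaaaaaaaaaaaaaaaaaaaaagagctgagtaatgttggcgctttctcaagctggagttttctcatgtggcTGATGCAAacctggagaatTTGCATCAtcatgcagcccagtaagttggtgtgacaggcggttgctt
Fmod: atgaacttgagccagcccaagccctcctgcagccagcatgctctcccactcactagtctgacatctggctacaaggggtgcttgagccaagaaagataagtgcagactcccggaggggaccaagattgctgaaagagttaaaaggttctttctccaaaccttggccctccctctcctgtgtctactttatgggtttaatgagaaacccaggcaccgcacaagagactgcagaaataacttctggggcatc
Ogn: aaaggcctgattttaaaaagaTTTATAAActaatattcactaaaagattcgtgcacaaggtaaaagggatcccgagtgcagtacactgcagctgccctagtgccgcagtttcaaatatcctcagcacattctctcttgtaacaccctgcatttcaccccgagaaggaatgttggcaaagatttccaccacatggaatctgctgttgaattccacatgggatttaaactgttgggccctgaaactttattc
In Slc7a11 the capitals are the amino acid response element TGATGNAA, once on the plus strand from base -66 to -59 and once on the minus strand from -47 to -40, and the CCAAT box on the minus strand from -216. In Ogn they are the TATA box letters TATAAA on both strands, at -229 and -227, which overlap. None of the motifs was found in the window of Fmod.

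The 9 motifs were the TATA box (TATAAA), the CCAAT box (CCAAT), an NF-kB site, an AP-1 site (TGANTCA), the CRE (TGACGTCA), the antioxidant response element (TGACNNNGC), the amino acid response element (TGATGNAA), the ISRE core and the E-box (CACGTG). A promoter entry existed for 14749 of the 18820 genes, for 17 of the 26 called higher and for 57 of the 77 called lower. The amino acid response element letters occurred in 463 of the 14749 promoters (3.14%), in 1 of the 17 and in 4 of the 57. The AP-1 letters occurred in 1029 promoters (6.98%), in 3 of the 17 and in 4 of the 57. The NF-kB letters occurred in 68 promoters (0.461%) and in none of the 17 or the 57. These are matches of letters and not measured sites.

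The 4 chemokines that were called were 3 inflammatory ones that rose and 1 homeostatic one that fell. Ccl5, which draws T cells and monocytes, read 7.21, 6.40, 6.65 and 6.56 in the PA arrays and 5.70, 5.53, 5.45 and 5.43 in the PMA arrays. It read 6.55, 6.60, 6.29 and 6.46 in the SA arrays and 5.64, 5.68 and 5.36 in the OA arrays. Every saturated array lay above every monounsaturated one, and the control arrays (6.11, 5.80, 5.78 and 6.04) lay between the classes. The difference was 1.05 ± 0.09 (SE; 95% interval 0.85 to 1.24; adjusted p = 4.51e-06 by limma), with 1.18 ± 0.13 at 16 carbons and 0.92 ± 0.14 at 18. Ccl5 was the only gene called in each pair by itself when each pair was adjusted alone (adjusted p = 4.39e-05 and 0.0116).

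Ccl2 and Ccl7, which recruit monocytes, rose by smaller amounts. Ccl2 read 7.17, 7.18, 7.18 and 7.08 with PA against 6.61, 6.69, 6.81 and 6.62 with PMA, and 7.36, 6.90, 6.98 and 7.20 with SA against 6.87, 7.07 and 6.81 with OA. Its groups were separate at 16 carbons and overlapped at 18, and the difference was 0.33 ± 0.06 (adjusted p = 0.0153). Ccl2 was no longer called without PMA replicates 1 and 4 (adjusted p = 0.132), without OA replicate 1 (0.0522) or without OA replicate 3 (0.0811). Ccl7 rose by 0.29 ± 0.05 (0.38 at 16 carbons and 0.21 at 18; adjusted p = 0.00228), with 7 of 8 saturated arrays above every monounsaturated one.

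Cxcl12, the stromal chemokine that retains cells through Cxcr4, went the other way. It read 7.43, 7.57, 7.55 and 7.52 with PA, 7.83, 7.70, 7.77 and 7.80 with PMA, 7.65, 7.61, 7.64 and 7.60 with SA and 7.79, 7.86 and 7.89 with OA. All 8 saturated arrays lay below all 7 monounsaturated ones, and it fell by 0.24 (SE 0.03; -0.26 at 16 carbons and -0.22 at 18; adjusted p = 0.000937). In the chemokine list, 3 of 27 measured genes rose and 1 fell (against 0.138% and 0.414% of all genes), and the list's median was 0.03 against -0.01 over all genes. At an unadjusted p under 0.05, 4 of the 27 were higher and 4 lower, where 2.52% of all genes were higher and 10.1% lower. Cxcl10, which is induced by interferon and was picked out after its values were seen, had a difference of 0.34 that was not called (adjusted p = 0.0539). Another inflammatory chemokine, Cxcl5, picked out in the same way, had -0.17 and was not called either.

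**Figure D2:**
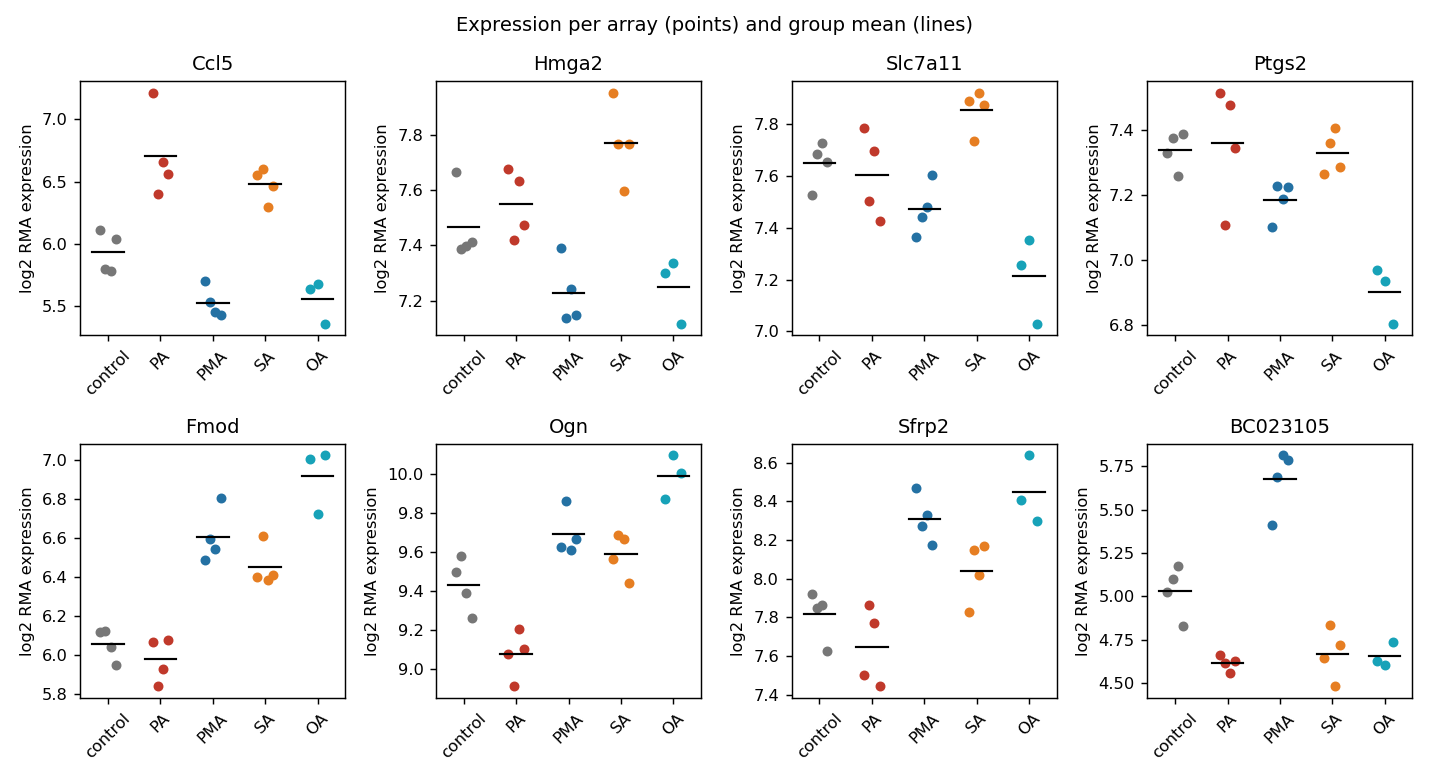
Log2 RMA expression (vertical axis) of 8 genes in each of the 19 arrays, by group; each point is 1 array and each line a group mean. Ccl5 and Hmga2 are higher in both saturated groups, Slc7a11 and Ptgs2 differ more between SA and OA than between PA and PMA, Fmod, Ogn and Sfrp2 are lower with the saturated acid at each chain length, and BC023105 is high with PMA alone, from 5.41 to 5.81.

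Other inflammatory genes rose in small number. Ptgs2, the inducible prostaglandin synthase, read 7.51, 7.11, 7.47 and 7.34 with PA, 7.10, 7.23, 7.19 and 7.22 with PMA, 7.26, 7.36, 7.40 and 7.29 with SA and 6.97, 6.94 and 6.80 with OA. The SA and OA arrays did not overlap, while PA replicate 2 lay among the PMA arrays, and the difference was 0.30 ± 0.05 (0.17 at 16 carbons and 0.43 at 18; adjusted p = 0.00519). Haptoglobin (Hp), an acute phase protein made by adipocytes, rose by 0.33 ± 0.05 (0.44 and 0.22; adjusted p = 0.00241) and was higher in all 8 saturated arrays than in any monounsaturated one. These were the 2 called genes of 29 in the list of inflammatory cytokines and acute phase genes (against 0.138% of all genes called higher). The list's median was 0.03. Il6 had a difference of 0.13 (95% interval -0.02 to 0.27) and was not called.

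None of the 28 measured genes of NF-kB and Toll-like receptor signalling was called (against 0.553% of all genes), at a median of -0.04. At an unadjusted p under 0.05, 0 were higher and 5 lower, where 2.52% of all genes were higher and 10.1% lower. Of the 28, 17 lay below 0 in both pairs (60.7%, against 36.4% of all genes) and 4 above. Tlr4, a receptor through which saturated acids have been reported to act, differed by -0.06 (95% interval -0.22 to 0.10).

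Interferon-stimulated genes held 3 calls of 34, all higher (against 0.138% of all genes), at a list median of 0.05. Znfx1, a helicase-like sensor of double-stranded RNA, read 9.22, 9.18, 9.38 and 9.31 with PA and 8.68, 8.62, 8.69 and 8.60 with PMA. It read 8.66, 8.81, 9.02 and 9.10 with SA and 8.55, 8.60 and 8.58 with OA, so that both pairs were separate. It rose by 0.47 ± 0.05 (adjusted p = 7.77e-05), but a second, dimmer probe set of the gene had a difference of -0.08 (unadjusted p = 0.0208). With both probe sets averaged the difference was 0.20 (adjusted p = 0.0144). Ifi27l2a rose by 0.38 ± 0.07 (adjusted p = 0.0135), and the antiviral enzyme Rsad2 by 0.31 ± 0.07 (adjusted p = 0.0354).

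Without PA replicates 2 and 4 Ifi27l2a was no longer called (adjusted p = 0.0590), and without PMA replicates 1 and 4 neither it nor Rsad2 was. Rsad2 was called in 13 of the 27 settings that kept it, and not after cyclic loess. Ifit1, another antiviral gene, had a difference of 0.52 that was not called (95% interval 0.22 to 0.82; adjusted p = 0.124). Its PA arrays spread from 5.24 to 6.50, and the highest of them, replicate 1, also read highest for Ccl5 and Cxcl10. At an unadjusted p under 0.05, 5 of the 34 list members were higher and 2 lower (2.52% and 10.1% of all genes). Outside the list, 2 genes inducible by interferon gamma, picked out after their values were seen, were called lower. They were Ifi30 (-0.28, called in all 28 settings) and Cd74 (-0.20, called in 7 of 28).

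Immediate early genes, which respond within minutes to growth factors and stress, held 3 calls of 26, all higher (against 0.138% of all genes). In both pairs 13 members lay above 0, against 1 below in both. Over all genes 22.8% lay above 0 in both pairs and 36.4% below. The transcription factor Egr1 read 8.46, 8.53, 8.27 and 8.33 with PA and 7.95, 7.67, 7.73 and 7.73 with PMA. It read 7.79, 7.75, 7.64 and 7.79 with SA and 7.58, 7.60 and 7.62 with OA. The PA arrays stood at the level of the control arrays (8.24 to 8.44), and every array of the other acids lay below the lowest control. Egr1 rose by 0.38 ± 0.05 (0.63 at 16 carbons and 0.14 at 18; adjusted p = 0.000315), and its difference between the chain lengths was -0.48 (95% interval -0.69 to -0.28), which did not pass the test (adjusted p = 0.695).

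The AP-1 subunit gene Junb rose by 0.25 ± 0.05 (0.30 and 0.21; adjusted p = 0.00753). Ccn1, a matricellular protein gene induced by serum and stretch, rose by 0.37 ± 0.06 (0.49 and 0.24; adjusted p = 0.00497). Its relative Ccn2 had a difference of 0.27 that was not called (adjusted p = 0.0680). Egr1, Junb and Ccn1 were called under all 28 settings.

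At 18 carbons 6 genes were called, all higher with SA (0.0319%), and 451 genes had an unadjusted p under 0.05 (2.40%). They were Slc7a11, Ccl5, Ereg, Bcat1, Hmga2 and Ptgs2. Slc7a11, the cystine importer that feeds glutathione synthesis, read 7.89, 7.73, 7.92 and 7.87 with SA and 7.26, 7.35 and 7.03 with OA. With PA it read 7.79, 7.50, 7.70 and 7.43, and with PMA 7.36, 7.44, 7.48 and 7.61. Every SA array lay above every OA and PMA array, and PA overlapped with both PMA and SA. The difference was 0.64 ± 0.09 at 18 carbons (adjusted p = 0.00548) and 0.13 ± 0.08 at 16 (adjusted p = 0.425). The difference between the chain lengths was 0.51 (95% interval 0.27 to 0.76), which did not pass the test over all genes (adjusted p = 0.929).

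Slc7a11 was the 1 called gene among 25 of the integrated stress response and among 22 targets of NRF2, the regulator of antioxidant genes, since it stands in both lists (against 0.138% of all genes called higher). Their medians were -0.01, as over all genes, and -0.05. Atf4, the transcription factor of the stress response, differed by 0.03 (95% interval -0.05 to 0.10), and its target Trib3 by -0.00 (95% interval -0.10 to 0.10).

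Ereg, a ligand of the epidermal growth factor receptor, rose by 0.36 ± 0.06 (0.20 at 16 carbons and 0.53 at 18; adjusted p = 0.00181). Bcat1, which transaminates branched-chain amino acids in the cytosol, rose by 0.25 ± 0.05 (0.10 and 0.39; adjusted p = 0.00952). Hmga2, a chromatin protein of growing mesenchymal cells, read 7.68, 7.42, 7.63 and 7.47 with PA against 7.39, 7.14, 7.24 and 7.15 with PMA. It read 7.95, 7.77, 7.60 and 7.77 with SA against 7.30, 7.34 and 7.12 with OA, so that all 8 saturated arrays lay above all 7 monounsaturated ones. It rose by 0.42 ± 0.06 (adjusted p = 0.000978).

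Among the other large rises, Wfdc21, a small secreted protease inhibitor-like protein, rose by 0.36 ± 0.04 (0.49 and 0.23; adjusted p = 8.88e-05). The matrix glycoprotein Tnc rose by 0.37 ± 0.07 (0.35 and 0.39; adjusted p = 0.0174), and lost its call without OA replicate 3 (adjusted p = 0.101) or SA replicate 3 (0.0522). Car6, a secreted carbonic anhydrase, rose by 0.38 ± 0.09 at the edge of the threshold (adjusted p = 0.0497) and was called in 12 of 28 settings. In the list of the unfolded protein response and chaperones of the endoplasmic reticulum, 1 of 25 genes was called (against 0.138% of all genes called higher). This was the translocon subunit gene Sec61b. It rose by 0.25 ± 0.05 (adjusted p = 0.0211), and was no longer called without PA replicates 2 and 4 or without PMA replicates 1 and 4. Hspa5, the main chaperone there, differed by 0.03 (95% interval -0.04 to 0.10). At an unadjusted p under 0.05, 7 of the 25 were higher and 1 lower, where 2.52% of all genes were higher and 10.1% lower. The list's median was 0.03 (-0.02 for PA minus PMA and 0.04 for SA minus OA), and 0.06 after cyclic loess. Sdf2l1 (0.22), Manf (0.16) and Creld2 (0.10), the other members with the lowest p, were not called. The related gene Sec61g, outside the list and picked out after its values were seen, was called higher at 0.23.

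**Figure D3:**
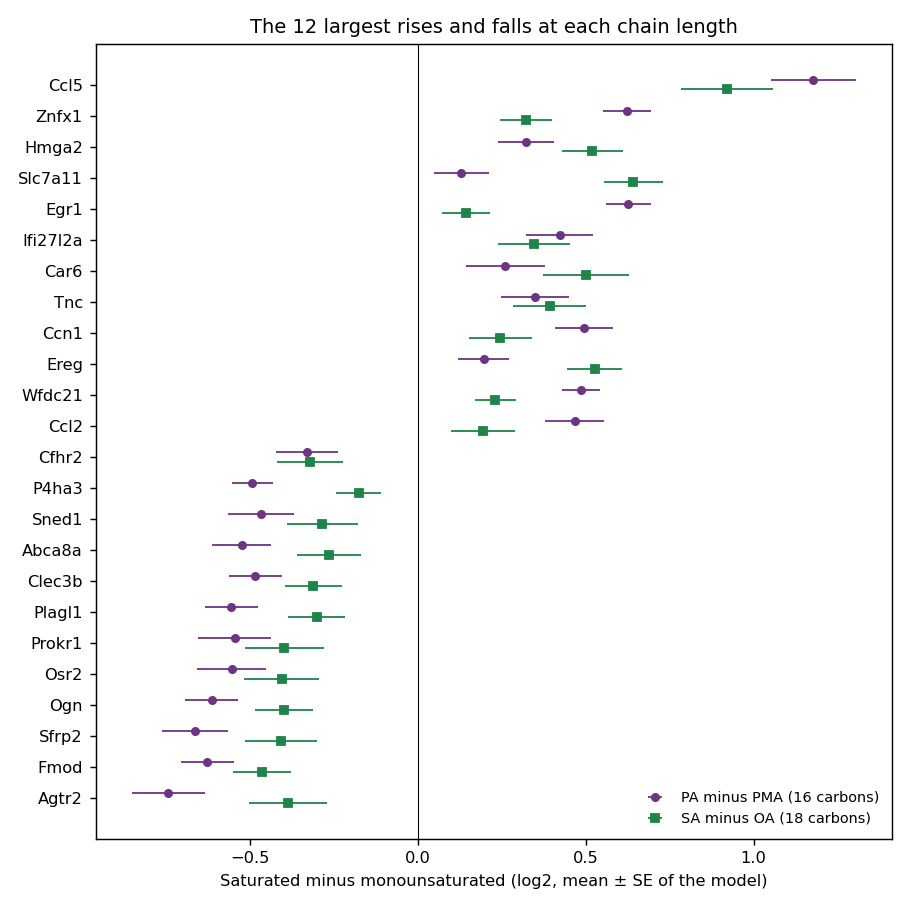
Log2 difference with its standard error from the model (horizontal axis) for the 12 genes with the largest rises and the 12 with the largest falls, at 16 carbons (purple circles) and at 18 (green squares). All 24 lie on the same side of 0 at both chain lengths, Slc7a11 at 0.13 and 0.64 and Egr1 at 0.63 and 0.14 with the pairs furthest apart.

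The extracellular matrix list, one of the longest, held the most falls of the 28 lists. Of 40 measured members, 6 were lower and 1, Tnc, was higher (against 0.414% and 0.138% of all genes). The list median was -0.05 (-0.08 for PA minus PMA and -0.02 for SA minus OA), and 22 of 40 lay below 0 in both pairs (55.0%, against 36.4% of all genes). Against control the list median was 0.07 for the saturated acids and 0.12 for the monounsaturated ones (0.02 and 0.04 over all genes). The list as a whole thus did not lie below control with the saturated acids. After cyclic loess the list median was -0.02, and the 6 genes were still called. Without PMA replicates 1 and 4, 3 of the 6 were called, and without PA replicates 2 and 4, 4 were. The list was chosen with earlier results of these arrays known, so its count is not independent evidence of its direction.

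Fmod, fibromodulin, a small proteoglycan that binds collagen fibrils, read 6.07, 5.84, 5.93 and 6.08 with PA and 6.49, 6.59, 6.54 and 6.80 with PMA. It read 6.40, 6.61, 6.38 and 6.41 with SA and 7.01, 6.72 and 7.02 with OA. Both pairs were separate, SA replicate 2 lay within the PMA arrays, and the control arrays (5.95 to 6.12) were at the level of PA. Fmod fell by 0.55 (SE 0.06; 95% interval -0.67 to -0.42; adjusted p = 6.26e-05), with -0.63 at 16 carbons and -0.46 at 18.

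Ogn, osteoglycin, a proteoglycan of the same family, read 9.08, 8.91, 9.21 and 9.11 with PA and 9.62, 9.86, 9.61 and 9.67 with PMA. It read 9.57, 9.69, 9.67 and 9.44 with SA and 9.87, 10.10 and 10.00 with OA. Both pairs were separate, but SA and PMA overlapped. Ogn fell by 0.51 (SE 0.06; -0.62 and -0.40; adjusted p = 8.88e-05).

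Timp2, an inhibitor of matrix metalloproteinases, fell by 0.27 (SE 0.04; -0.41 and -0.12; adjusted p = 0.00194). The matricellular gene Thbs2 had -0.19, the proteoglycan Dcn -0.19 and the adhesion protein Postn -0.18 (adjusted p = 0.0118, 0.0254 and 0.0340). Dcn and Postn, named to complete the 6, were chosen after their values were seen. They were no longer called without PA replicates 2 and 4, nor was either of them, or Thbs2, without PMA replicates 1 and 4. P4ha3, a subunit of the collagen prolyl hydroxylase, fell by 0.34 (SE 0.05; -0.49 and -0.18) and stood outside the list. Picked out after their values were seen, the secreted matrix genes Dpt (-0.18) and Fbln1 (-0.23), the metalloproteinase inhibitor Reck (-0.25) and the tissue plasminogen activator Plat (-0.32) were also called lower. Of these, Reck was called in all 28 settings, Plat and Fbln1 in 25 each and Dpt in 14.

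The largest fall among genes on the same side in both pairs was that of a receptor. Agtr2, the type 2 angiotensin II receptor, read 6.89, 7.48, 7.51 and 7.17 with PA and 7.93, 8.17, 7.94 and 7.98 with PMA. It read 7.60, 7.32, 7.27 and 7.56 with SA and 7.84, 7.70 and 7.94 with OA. All 8 saturated arrays lay below all 7 monounsaturated ones, the closest being SA replicate 1 and OA replicate 2. Agtr2 fell by 0.57 (SE 0.08; -0.74 and -0.39; adjusted p = 0.000708).

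Sfrp2, a secreted modulator of Wnt signalling expressed by fibroblasts and preadipocytes, read 7.50, 7.87, 7.77 and 7.44 with PA and 8.47, 8.27, 8.33 and 8.17 with PMA. It read 7.83, 8.15, 8.02 and 8.17 with SA and 8.41, 8.64 and 8.30 with OA. The highest SA array and the lowest PMA array lay next to each other, and no saturated array exceeded a monounsaturated one. It fell by 0.54 (SE 0.07; -0.66 and -0.41; adjusted p = 0.000488).

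The zinc finger transcription factor Osr2 fell by 0.48 (SE 0.08; -0.56 and -0.41; adjusted p = 0.00189), and its relative Osr1, picked out after its values were seen, by 0.30. Prokr1, a receptor of prokineticins, fell by 0.47 (SE 0.08; adjusted p = 0.00412), and one of its OA arrays (6.10) lay within the saturated range. The imprinted zinc finger gene Plagl1 fell by 0.43 (SE 0.06; adjusted p = 0.000488) and Clec3b, which encodes the secreted protein tetranectin, by 0.40 (SE 0.06; adjusted p = 0.000937). The lipid transporter gene Abca8a fell by 0.40 (SE 0.07; adjusted p = 0.00317), and its neighbour in the family, Abca9, picked out in the same way, by 0.31. Sned1 (-0.38) and Cfhr2 (-0.33) completed the 12, and Cfhr2 was called in 17 of the 27 settings that kept it.

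Of the markers of preadipocytes and fibroblasts, Sfrp2 was the 1 called of 21 (against 0.414% of all genes called lower), at a list median of -0.05. Of the 21, 14 lay below 0 in both pairs (66.7%, against 36.4% of all genes) and 5 above. The mean over the 21 genes ranged from 8.07 to 8.21 in the PA arrays and 8.17 to 8.31 in the PMA arrays, and from 8.13 to 8.19 with SA and 8.18 to 8.23 with OA. Fap, a surface protease of fibroblasts, had -0.23 and was just outside the threshold (adjusted p = 0.0523). Adipocyte markers had 0 of 20 called by limma (against 0.553% of all genes) at a median of -0.01. At an unadjusted p under 0.05 they also had 0 of 20 (against 12.6% of all genes). The part of these markers in the matrix falls was not tested, and in RNA from whole cultures fewer cells of a type and less RNA per cell cannot be told apart.

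**Figure D4:**
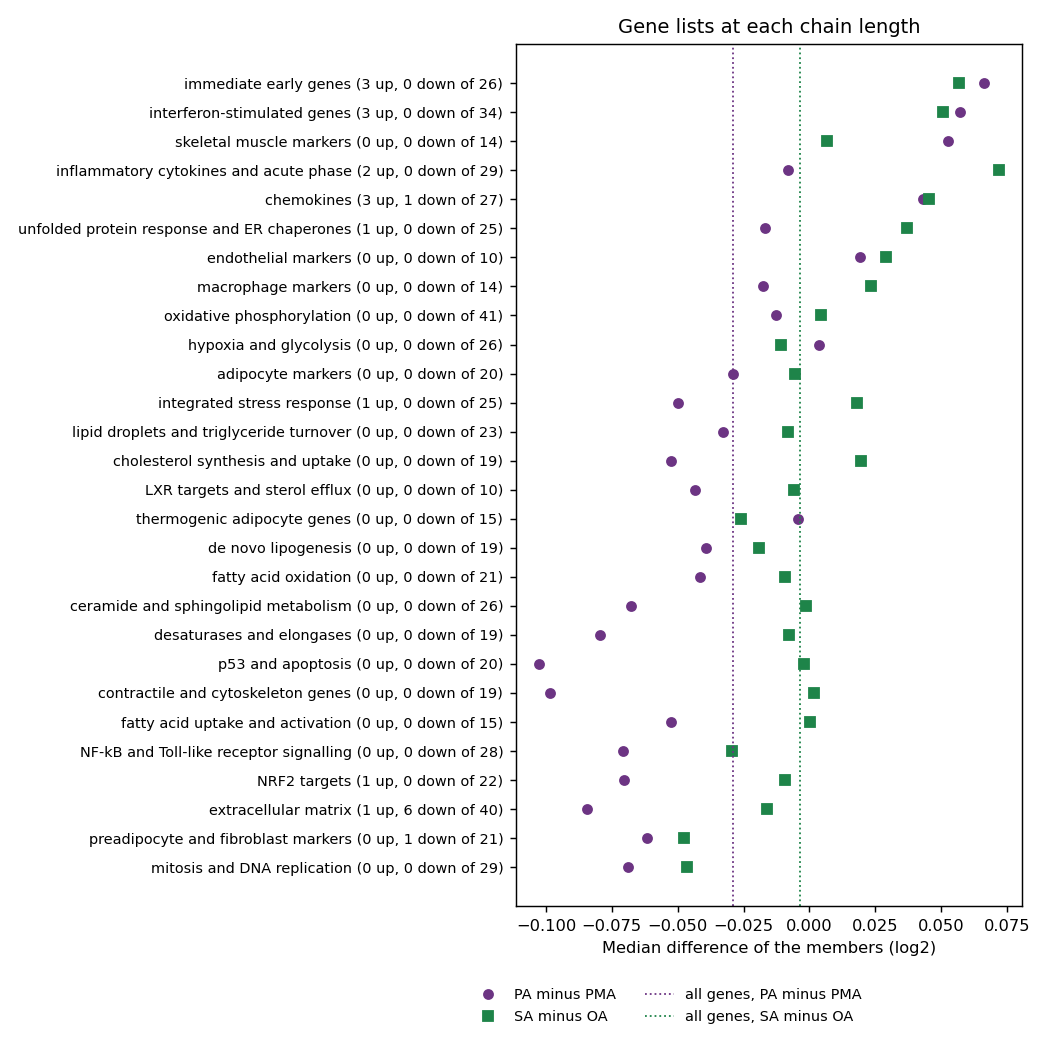
Median log2 difference of the members (horizontal axis) of 28 gene lists at 16 carbons (purple circles) and 18 carbons (green squares), with the medians of all genes as dotted lines; the numbers called higher and lower stand after each list's name. Immediate early, interferon-stimulated and chemokine lists lie above both lines at both chain lengths. So do the lists of endothelial and skeletal muscle markers, cell types whose markers were mostly dim. The preadipocyte and fibroblast, extracellular matrix and mitosis lists are among those below the line of each chain length.

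For genes that handle the acids themselves, the share of all genes called between the classes (0.553%) makes few calls likely in lists this short. The lists of desaturases and elongases (19 measured), de novo lipogenesis (19), cholesterol synthesis and uptake (19), fatty acid oxidation (21), lipid droplets (23), ceramide and sphingolipid metabolism (26) and fatty acid uptake and activation (15) had no called member by limma between the classes. At an unadjusted p under 0.05 they had 0 higher and 3 lower, 0 and 2, 0 and 0, 1 and 2, 0 and 2, 0 and 6, and 0 and 4, where 2.52% of all genes were higher and 10.1% lower. At 16 carbons alone, where 0.855% of all genes were called lower, 2 of these genes were. They were the fatty acid transporter gene Slc27a1 (-0.29; adjusted p = 0.0153) and Cpt1a (-0.22; adjusted p = 0.0422). Scd1, the main desaturase of palmitate and stearate, read 12.81 to 12.93 with PA, 12.86 to 12.95 with PMA, 12.86 to 12.95 with SA and 12.85 to 12.96 with OA. Its groups overlapped throughout, and the difference was -0.02 (95% interval -0.09 to 0.06).

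Intervals are given for 5 other lipid genes. Srebf1, the lipogenic transcription factor, differed by 0.04 (95% interval -0.05 to 0.12) and the elongase Elovl6 by -0.02 (-0.11 to 0.08). Plin2, a lipid droplet coat protein, differed by -0.02 (-0.09 to 0.05), and the serine palmitoyltransferase subunit Sptlc2, which opens ceramide synthesis, by -0.03 (-0.12 to 0.06). Cpt1a, which admits fatty acids to mitochondria, differed by -0.12 (-0.20 to -0.04) and was not called (adjusted p = 0.190). These intervals leave no room for a 1.5-fold difference in any of the 5. Hacd4, a dehydratase of the elongation cycle that was not in the list and was picked out after its values were seen, was called lower at -0.26 (-0.40 and -0.13; adjusted p = 0.0264). It was no longer called without PA replicates 2 and 4 or without PMA replicates 1 and 4.

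The acids of each pair differ by 1 double bond, and these 2 pairs were the ones compared at matched dose and time. Taken alone, PA minus PMA gave 181 calls (0.962%), 20 higher and 161 lower, and SA minus OA gave the 6 named above. After cyclic loess PA minus PMA gave 125 calls, 70 higher and 55 lower, so the excess of falls at 16 carbons depended on the scaling of the arrays. With the p-values of both pairs adjusted together, 97 genes were called at 16 carbons (12 higher, 85 lower) and 8 at 18 (6 higher, 2 lower). The 2 lower were Fmod and the olfactory receptor gene Olfr553, which falls outside the naming rule (-0.30 at 18 carbons and -0.00 at 16), and Ccl5 and Fmod were then the genes called in both pairs. The count at 16 carbons rested on single arrays, since it was 54 without PA replicates 2 and 4, 30 without PMA replicates 1 and 4, 49 without PA replicate 4 and 638 without PA replicate 3. It was also 447 without PA replicate 1, 77 without PMA replicate 1, 89 without PMA replicate 3 and 74 without PMA replicate 4. At 18 carbons no gene was called by limma without OA replicate 3, 1 without SA replicate 1, 2 without SA replicate 4, and 3 without control replicate 3, control replicate 4 or PMA replicate 3.

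Since the pairs share no array, genes called at one chain length can be looked up at the other, although both use the spread estimated over all 19 arrays. Of the 20 genes called higher at 16 carbons, 20 were higher with SA than with OA, where 47.7% of all genes were. Of these, 11 had an unadjusted p under 0.05 in that direction (55.0%, against 1.23% of all genes), and 8 had SA arrays that did not overlap OA (40.0%, against 2.13%). The median SA minus OA of the 20 was 0.20. Of the 161 called lower at 16 carbons, 146 were lower with SA than with OA (90.7%, against 52.3% of all genes). Of these, 40 had an unadjusted p under 0.05 (24.8%, against 1.16%), and 47 had arrays that did not overlap (29.2%, against 2.5%). The median of the 161 was -0.08. None of the 181 had an unadjusted p under 0.05 in the opposite direction.

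The share of PA minus PMA calls on the same side in SA minus OA was 91.7% (166 of 181). It was 98.1% of 54 genes without PA replicates 2 and 4, 96.7% of 30 without PMA replicates 1 and 4 and 93.6% of 125 after cyclic loess. In the other direction, 6 of the 6 genes called at 18 carbons were higher with PA than with PMA, where 38.8% of all genes were. Of these, 4 had an unadjusted p under 0.05 in that direction (66.7%, against 3.13% of all genes). At an unadjusted p under 0.05 in each pair, 47 genes were higher (0.25%) and 99 lower (0.526%) in both, and 8 moved in opposite directions (0.0425%). Without OA replicate 3 the 146 that moved together became 91. Across all genes the 2 pair differences had a Pearson correlation of 0.307 (Spearman 0.274), and 59.2% of genes lay on the same side. Genes are not independent replicates, and this is a description.

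Whole groups of arrays separated for few genes. For 9 genes (0.0478%) all 8 saturated arrays lay above all 7 monounsaturated ones, and for 31 (0.165%) all lay below. Each pair was separate in the same direction for 20 genes higher (0.106%) and 99 lower (0.526%). PA and PMA alone were separate for 173 genes higher (0.919%) and 1335 lower (7.09%).

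A test of whether the double bond acted differently at the 2 chain lengths called 1 gene (0.00531%), and 986 genes had an unadjusted p under 0.05 (5.24%), 791 with a higher SA minus OA (4.2%) and 195 with a lower one (1.04%). The gene was BC023105, named after a cDNA clone. It read 4.66, 4.61, 4.56 and 4.63 with PA and 5.41, 5.69, 5.81 and 5.79 with PMA. It read 4.64, 4.83, 4.48 and 4.72 with SA and 4.62, 4.60 and 4.74 with OA. PMA stood alone above the other acids and above the controls (4.83 to 5.18). The difference was -1.06 ± 0.09 at 16 carbons and 0.01 ± 0.09 at 18, and the difference between them was 1.07 (95% interval 0.81 to 1.34; adjusted p = 0.000611). BC023105 lay below the median gene in level and dropped out with the dimmest genes.

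The control arrays show where the classes stood, with the same controls in both comparisons. For the 26 genes called higher, the median was 0.08 for the saturated acids minus control and -0.25 for the monounsaturated acids minus control. For the 77 called lower it was -0.02 and 0.21. Of the 26, 1 gene (Ccl5) was called for the saturated acids against control and 13 for the monounsaturated ones, and of the 77, 0 and 36 were. Over all genes the saturated acids gave 2 calls higher (0.0106%) and 2 lower (0.0106%) against control, and the monounsaturated acids 159 (0.845%) and 73 (0.388%). Acid by acid, PA gave 0 calls by limma, PMA 36 higher (0.191%) and 14 lower (0.0744%), SA 20 higher (0.106%) and 11 lower (0.0584%), and OA 86 higher (0.457%) and 76 lower (0.404%). The monounsaturated acids lay further from control than the saturated ones for 21 of the 26 genes and 69 of the 77. The group of 103 was chosen on the same acid arrays, so these medians and counts are a description.

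Single genes show both arrangements. Ccl5 stood 0.66 above control with the saturated acids (adjusted p = 0.0466) and had -0.39 with the monounsaturated ones (adjusted p = 0.0898). Fmod had 0.16 with the saturated acids (adjusted p = 0.468) and stood 0.70 above control with the monounsaturated ones. Egr1 fell by 0.66 with the monounsaturated acids and had -0.27 with the saturated ones (adjusted p = 0.133), of which PA was at 0.05 and SA at -0.60. Bcat1 had 0.24 with the saturated acids and -0.01 with the monounsaturated ones.

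The genes named here for their place or their probe sets were picked out after their values were seen. Nearest the threshold were Car6 and H60b inside it (adjusted p = 0.0497 for each) and Fkbp11 and Fap outside it (adjusted p = 0.0501 and 0.0523). Of the called genes, 9 had more than 1 probe set, and 20 of their 22 other probe sets lay on the same side in the difference between the classes. The exceptions were those of Znfx1 and of Immp1l, a mitochondrial peptidase gene (0.21 and -0.09). Rps12, a ribosomal protein gene with many copies in the genome, was read by 12 probe sets with differences between 0.19 and 0.22, some of them identical in value, and its copies cannot be told apart here.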

How the data were processed

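Total RNA (100 ng per array) was hybridised to Affymetrix Mouse Gene 1.1 ST arrays, per the labels. The authors deposited log2 values for each probe set, which they had normalized by RMA with affy 1.34.0 in R 2.15.0, per the submitters' processing notes. The genome build of the probe design is not given in the sources used here. The number of arrays limits the precision.

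Of 35556 probe sets, 21218 had 1 gene symbol in the platform annotation, 1881 had several and 12457 were not named. Identifiers were checked against RefSeq's GRCm38.p6 table, where 21185 were found. Each of the 18820 genes was read by its brightest probe set, and dim genes were kept. A mean for each group was fitted in limma 3.58.1 (R 4.3.3; lmFit, then eBayes without a trend), so that the control arrays also gave information on the spread. Every test was two-sided, with Benjamini-Hochberg adjustment over all genes of a contrast and a threshold of 0.05. Intervals are at 95%. The fit was tested on simulated data.

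The text names the 12 largest called rises and falls with both pairs on the same side, up to 4 genes with the smallest interaction p, for each list described at most 4 members, those with the lowest p, and a panel of 26 genes (24 measured), or says that a gene was picked out after its values were seen. The 28 lists held 691 entries, 637 of them measured. The comparison, the lists and the alternatives were chosen with earlier results of these data known. Alternatives were cyclic loess, no dim genes, averaged or uncollapsed probe sets, a trended robust spread, only the 15 acid arrays, the replicate number as a block, array weights, 1 mean per class, additive terms, and arrays left out.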

Additional observations from a re-analysis of the deposited data

Results flagged for a closer look

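Among the 92 named genes, 21 single arrays lay far from the other 3 of their group of 4 (5.71% of 368 groups looked at, where chance alone marks about 1 in 20). No array held more than 3 of them (SA replicate 4).

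Among genes called between the classes, Fmod read 6.61 in SA replicate 2 against 6.38 to 6.41 in the others, the highest of its group. P4ha3 read 7.53 in PMA replicate 1, again the highest, and Cfhr2 read 4.03 in PMA replicate 3, the lowest. Agtr2 read 7.70 in control replicate 3 and Hmga2 7.67 in control replicate 1, each the highest, and Prokr1 read 5.94 in control replicate 4, the lowest. The last 3 do not enter the difference between the classes.

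Among genes that were not called, the highest of their groups were Fap at 5.03 in SA replicate 1, Gstm1 at 10.6 in PMA replicate 1, Scd3 at 9.24 in PMA replicate 3 and Traf6 at 7.80 in PMA replicate 4. So were Ehhadh at 5.58 in SA replicate 1, Fads2 at 11.5 in control replicate 2, Acaa2 at 10.6 in PMA replicate 4 and Aldh1l2 at 10.0 in PA replicate 1. Elovl6 at 9.39 in PA replicate 2, Zfp949 at 6.59 in PA replicate 1 and Insig1 at 11.6 in SA replicate 4 were also the highest. The lowest of their groups were Il33 at 4.79 in SA replicate 4, Acaa1a at 7.46 in control replicate 4, Slc7a3 at 3.78 in PA replicate 2 and Srebf1 at 8.37 in SA replicate 4.

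The effect of the double bond differed between the chain lengths for BC023105, by 1.07 on the log2 scale (adjusted p = 0.000611 by limma for the difference itself).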

How the results depend on the processing

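The numbers of genes called, 104 for saturated minus monounsaturated, 181 for PA minus PMA and 6 for SA minus OA, moved most with the estimate of the spread and with single arrays. With every probe set tested they were 57, 89 and 3, with 56 on the same side in both pairs (103 in the report) and 224 at an unadjusted p under 0.05 in both pairs (146 in the report). With a trended robust spread 196 and 489 were called, 195 on the same side. Without the dimmest genes 163 and 430 were called, 163 on the same side and 0 by the interaction, since BC023105 was among those left out. Array weights gave 255 and 24 for SA minus OA, 255 on the same side and 304 at an unadjusted p in both pairs. Only the 15 acid arrays gave 99 for PA minus PMA and 3 for SA minus OA. Without PA replicates 2 and 4 PA minus PMA gave 54. Without PMA replicates 1 and 4 the counts were 51 and 30, 50 on the same side. One mean per class gave 52. Adjustment over both pairs together, added after seeing the data, gave 97 for PA minus PMA. The share of PA minus PMA calls on the same side in SA minus OA, 91.7%, was also added after seeing the data. It was 81.4% with the trended spread, 82.8% without dim genes, 98.1% without PA replicates 2 and 4 and 96.7% without PMA replicates 1 and 4. Apart from the removal of BC023105, the cause of these shifts was not tested.

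With 1 array left out in turn, saturated minus monounsaturated ranged from 46 to 130 calls, PA minus PMA from 49 to 638, SA minus OA from 0 to 7 and the interaction from 1 to 1. The genes on the same side ranged from 45 to 129, those at an unadjusted p in both pairs from 91 to 219 and the share from 76.5% to 98.0%. With the replicate number as a block 71 genes were called (21 higher, 50 lower). In their deviations from the group means, 6 of 36 same-numbered pairs of arrays correlated over 0.1 (-0.433 to 0.396). No pairing by number was seen in this way, but deviations of whole arrays could miss a weak one. Of 19 arrays, 4 correlated best with an array of their own number.

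No named gene changed direction while called under any setting. Of the 92 named genes, 9 lost a call in at least 1 setting and 9 gained one. With cyclic loess, 8 of the 28 list medians lay on the other side of 0, among them those of fatty acid oxidation and de novo lipogenesis.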

Other observations

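Of the 14338 probe sets with no gene symbol or with several, tested apart by limma, 1 was called higher and 2 were called lower with the saturated acids.

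Mitosis and DNA replication genes had 0 of 29 called by limma (against 0.553% of all genes). At an unadjusted p under 0.05, 0 were higher and 11 lower, where 2.52% of all genes were higher and 10.1% lower. Their median was -0.08, the lowest of the 28 lists, and 19 of 29 lay below 0 in both pairs (65.5%, against 36.4% of all genes). Oxidative phosphorylation genes had 0 of 41 called (against 0.553% of all genes), at a median of 0.00. At an unadjusted p under 0.05, 3 of the 41 were higher, where 2.52% of all genes were.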
